A study of Mus musculus with 6 samples.

Results

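The endoplasmic reticulum chaperones described here are 10 genes, Hspa5, Hsp90b1, Dnajb9, Sdf2l1, Calr, Canx, Pdia3, Pdia4, Pdia6 and Creld2, of 18194 genes with a symbol on the array. They were chosen by name, as targets of the unfolded protein response, and every probe set that the platform annotation assigns to 1 of these symbols alone was taken, 20 of 34958 such probe sets. The knockout group comprised 3 arrays of heart ventricle from mouse embryos with a targeted deletion of skNAC, the long muscle form of the Naca transcript. The wild-type group comprised 3 arrays of ventricle from littermates. All embryos were E11.5 and of the 129SvEv strain. Labelling with biotin started from 500 ng of total RNA of each sample. The labels name the arrays by genotype and a number: knockout 1, 26 and 66, and wild-type 13, 23 and 57. They do not say whether an array held 1 heart or several, so p-values take in only the spread between the arrays, technical or biological. The deletion is described as total, so every cell of the embryo lacked skNAC, and effects from outside the heart are part of the comparison.

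Proteins that enter the endoplasmic reticulum are folded by a small set of abundant chaperones. Hsp70 and Hsp90 proteins hold unfolded chains, calnexin and calreticulin bind chains through their sugars, and protein disulfide isomerases join cysteines. When unfolded protein accumulates, the sensors IRE1, PERK and ATF6 start the unfolded protein response, in which the factors ATF6 and XBP1 raise transcription of these chaperones together. Many of the target promoters carry the ER stress response element (ERSE), where NF-Y binds the first letters and ATF6 or XBP1 the last. The nascent polypeptide-associated complex, to which Naca products belong, binds chains as they leave the ribosome and limits wrong delivery of ribosomes to the endoplasmic reticulum. Whether its muscle form bears on these chaperones in the ventricle is the question the comparison addresses here. In mice, calreticulin is itself needed for formation of the embryonic heart.

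The promoters are shown first, because the ERSE is the element through which ATF6 and XBP1 are known to act on many such genes, and not all of the 10 hold it. RefSeq promoters of build GRCm38.p6, 250 bases before to 50 bases after each annotated start, were found for 10 of 10 genes and searched on both strands for the ERSE, which is CCAAT, any 9 bases and CCACG. Exact matches stood in 6 of the 10, against 0.119% of all 32851 promoters, and Hsp90b1 held 2. The 10 were chosen as known targets of the response, so a high share follows largely from that choice. It is given as a description, not as a result of these data. The matches are printed here on the strand on which they read as the motif, with the fixed letters in capitals, to show how the 9 letters between them differ from gene to gene.
Hspa5, chr2:34772025-34772043, plus strand: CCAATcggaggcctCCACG
Hsp90b1, chr10:86705533-86705551, plus strand: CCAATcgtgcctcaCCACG
Hsp90b1, chr10:86705638-86705656, minus strand: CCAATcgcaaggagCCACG
Calr, chr8:84847075-84847093, plus strand: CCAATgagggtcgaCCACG
Canx, chr11:50325800-50325818, minus strand: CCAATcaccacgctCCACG
Pdia6, chr12:17266491-17266509, plus strand: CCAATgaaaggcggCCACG
Creld2, chr15:88819520-88819538, minus strand: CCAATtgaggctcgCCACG
The element read in the direction of the gene in Hspa5, Canx, Pdia6 and the more distant of the 2 in Hsp90b1, and in the opposite direction in Calr, Creld2 and the nearer one in Hsp90b1. Its first base lay between 65 bases upstream of the start, in Hspa5, and 212 bases upstream, in Hsp90b1.

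Of the 4 genes without an exact match, Pdia3 and Pdia4 had a match with 1 mismatch, at the last letter. These sites are printed to show how close they come. Positions are counted from 1 at the first C of the motif, the motif's base comes first, and capitals mark the positions that are fixed in the motif.
Pdia3, chr2:121413873-121413891, plus strand, G19A: CCAATcggcggctgCCACA
Pdia4, chr6:47813602-47813620, plus strand, G19T: CCAATcacgggctgCCACT
A site with at most 1 mismatch was found in 8 of the 10 members and in 494 of the 32851 promoters. Dnajb9 and Sdf2l1 had no such match in this window. The CCAAT box alone, which is part of the ERSE, occurred in all 10 and in 37.4% of promoters. The related ERSE-II, which is ATTGG, any 1 base and CCACG, stood in 0.0365% of promoters, and TGACGTGG, the core of a site bound by XBP1 and ATF6, in 0.676%. Neither occurred in any of the 10 in these exact letters. A form of the core with another last letter was not searched for, and the Hspa5 promoter printed below holds TGACGTGA. ERSE-II shares its last 5 letters with the ERSE.

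**Figure D1:**
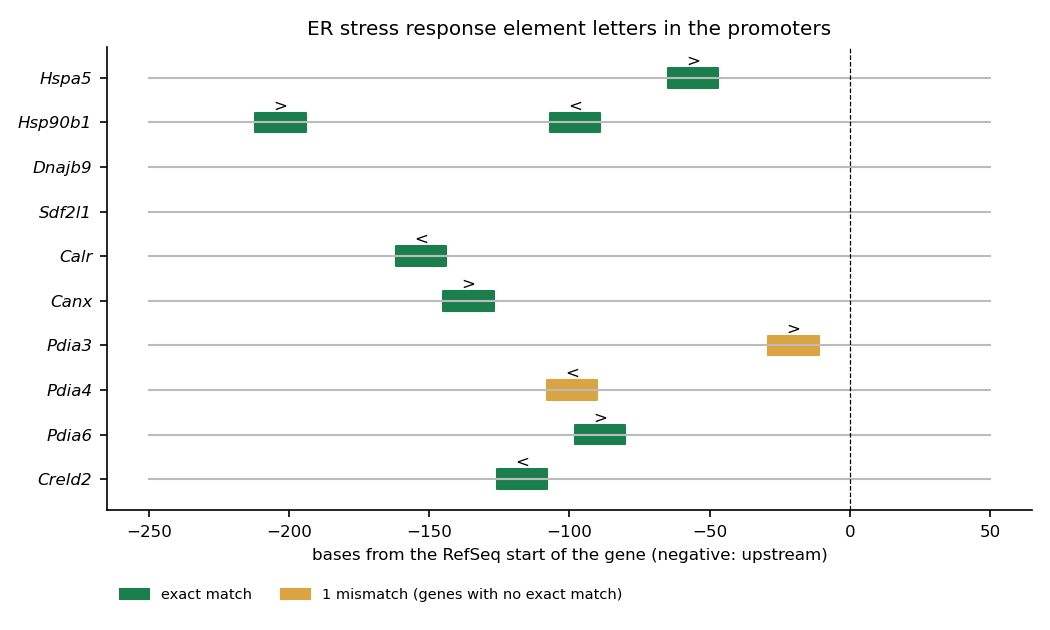
Matches to the ERSE in the promoters of the 10 genes, from 250 bases upstream to 50 bases downstream of the RefSeq start (horizontal axis, bases). Green boxes are exact matches, ochre boxes matches with 1 mismatch in genes without an exact one, and arrowheads give the direction of the motif relative to the gene; 6 genes hold an exact match, all upstream of the start.

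The full promoter is printed for Hspa5 and Calr, and for Canx, the partner of Calr. By brightest probe set, Hspa5 and Calr had the highest log2 differences of the 10, knockout minus wild-type, and Canx lay below 0. No member passed adjustment, and the other probe sets of Hspa5 lay below 0. As means of all kept probe sets, Hspa5 was at 0.11, Calr at 0.21 and Creld2 at 0.20. The promoters of Hspa5, Calr and Canx all hold an exact ERSE. Each reads 5′ to 3′ in the direction of the gene, and the fixed letters of the ERSE are in capitals, on whichever strand it lies.
Hspa5, chr2:34771840-34772139, plus strand: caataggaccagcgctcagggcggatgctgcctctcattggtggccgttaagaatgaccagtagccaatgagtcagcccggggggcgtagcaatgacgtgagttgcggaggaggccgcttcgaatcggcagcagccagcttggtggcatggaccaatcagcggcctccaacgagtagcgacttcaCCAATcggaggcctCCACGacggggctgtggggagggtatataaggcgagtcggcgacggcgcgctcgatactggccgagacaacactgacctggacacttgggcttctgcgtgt
Calr, chr8:84846882-84847181, minus strand: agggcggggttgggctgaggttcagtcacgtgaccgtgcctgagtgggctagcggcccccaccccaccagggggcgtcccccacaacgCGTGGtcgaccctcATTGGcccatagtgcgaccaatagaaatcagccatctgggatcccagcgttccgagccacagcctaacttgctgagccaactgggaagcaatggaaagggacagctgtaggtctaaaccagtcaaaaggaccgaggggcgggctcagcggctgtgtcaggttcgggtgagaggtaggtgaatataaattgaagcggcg
Canx, chr11:50325624-50325923, minus strand: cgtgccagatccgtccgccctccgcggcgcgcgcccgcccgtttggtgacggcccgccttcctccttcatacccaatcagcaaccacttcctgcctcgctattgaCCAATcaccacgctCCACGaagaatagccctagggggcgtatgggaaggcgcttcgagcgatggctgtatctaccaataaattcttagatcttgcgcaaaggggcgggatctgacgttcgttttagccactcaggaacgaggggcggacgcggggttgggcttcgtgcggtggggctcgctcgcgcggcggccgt
Hspa5 held 4 CCAAT boxes on both strands together, Canx held 3 and Calr held 2.

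The values are MAS5 signals, intensities on a linear scale, and each array was scaled to the same trimmed mean, so a general change of RNA per cell leaves no trace in them. In bulk ventricle, fewer cells of a type and less RNA per cell cannot be told apart. Knockout 66 stood apart, with Pearson correlations of 0.919 to 0.923 with the other arrays across probe sets, while each of the others reached 0.950 or more with at least 1 array. The 3' to 5' signal ratio of actin, a sign of RNA length, ranged over 2.49 to 2.57 in knockout arrays, against 2.05 to 2.24 in wild-type arrays. For Gapdh it was 1.28 to 1.45 in knockout arrays, against 1.12 to 1.196 in wild-type arrays. Both ratios were higher in all knockout arrays, and their part in the results was not tested. Naca itself, on its brighter probe set, read 9047, 9034 and 8595 in knockout 1, 26 and 66, against 8385, 8566 and 8286 in wild-type 13, 23 and 57. The other probe set, 1416669_s_at, read 9762, 8406 and 7406 in knockout, against 8279.5, 8314 and 7503.5 in wild-type. The genotypes overlapped there, with knockout 66 the lowest of the 6 arrays. The log2 difference was 0.08 on both, and -0.024 on the second without knockout 1. The sources used here do not say whether either Naca probe set reads the muscle-specific part.

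None of the 10 chaperone genes differed between genotypes after adjustment over all genes. In limma, 0 of 11661 genes (0%) and 0 of 22518 probe sets (0%) passed an adjusted p of 0.05. Of the 10, 4 lay above 0 and 6 below 0 on the log2 difference of knockout minus wild-type, with a median of -0.05. Over all genes, 50.4% lay above 0 and the median was 0.0023. At an unadjusted p under 0.05 there was 1 member, Hspa5, against 4.69% of all genes, or 2.18% that were higher in knockout. Hspa5 was also the 1 member of 10 whose arrays did not overlap between genotypes, as was so for 10.9% of all genes, 5.4% higher in knockout. A count of 1 in 10 is near these backgrounds. The count above 0 was 7 without wild-type 13 and 6 without knockout 66, and the median was then 0.030 and 0.044.

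**Figure D2:**
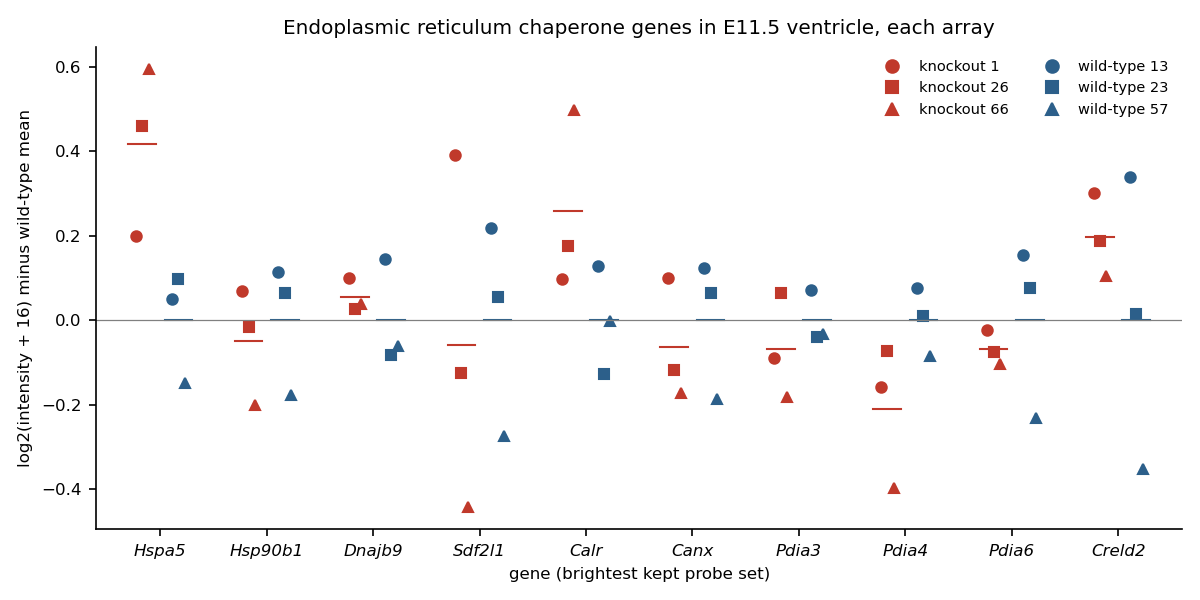
Signal of each chaperone gene on each array, by its brightest kept probe set, as log2(intensity + 16) minus the wild-type mean (vertical axis). Points are arrays, knockout left of wild-type for each gene, and short lines are means of 3 arrays; of the 10, Hspa5 alone has all knockout arrays above all wild-type arrays, and knockout 66 is highest for Hspa5 and Calr and lowest for Hsp90b1, Sdf2l1, Pdia3 and Pdia4.

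Hspa5 encodes BiP, the Hsp70 of the endoplasmic reticulum and the protein that holds the sensors of the unfolded protein response inactive. Its brightest probe set, 1416064_a_at, read 9210.0, 11028 and 12115 in knockout 1, 26 and 66, against 8306, 8584 and 7231 in wild-type 13, 23 and 57. All knockout arrays lay above all wild-type arrays, with knockout 1 closest to them. The knockout mean of 10784 ± 1468 compares with a wild-type mean of 8040.4 ± 715 (SD of 3 arrays each). Their log2 difference was 0.42 ± 0.11 (SE). That is 1.34-fold on the log2(intensity + 16) scale, with a 95% interval from 1.12 to 1.59. In limma the adjusted p was 0.974 over all genes and the unadjusted p was 0.0038.

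The other probe sets of Hspa5 did not show this difference. Probe set 1427464_s_at read 4403.5, 4301 and 3938 in knockout, against 4809, 4169 and 3793 in wild-type. Probe set 1447824_x_at read 1865, 1631 and 1629.6 in knockout, against 1731, 1729 and 1936 in wild-type. On both, the genotypes overlapped. Their log2 differences were -0.01 ± 0.11 and -0.07 ± 0.11, with 95% intervals from -0.25 to 0.23 and from -0.32 to 0.17. These intervals do not hold the 0.42 of the brightest probe set, but its own interval, from 0.17 to 0.67, overlaps the upper end of the first and touches that of the second.

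The disagreement was tested within arrays, where any scaling of a whole array cancels. A difference in RNA length between arrays need not cancel there. The actin and Gapdh ratios given above as a sign of RNA length were higher in all knockout arrays, and their part in this ratio was not tested. The log2 ratio of 1416064_a_at to 1427464_s_at was 1.06, 1.36 and 1.62 in knockout 1, 26 and 66, against 0.79, 1.04 and 0.93 in wild-type 13, 23 and 57. All knockout ratios were higher, by 0.43 on average, with an exact permutation p of 0.1 (two-sided), the smallest that 3 against 3 arrays allow, and 0.53 after adjustment over the 8 pairs of probe sets compared. Against 1447824_x_at the ratio was 2.29 to 2.88 in knockout and 1.89 to 2.30 in wild-type. Knockout 1, at 2.29, fell just below wild-type 23 here. The mean difference was 0.49, with an exact permutation p of 0.2 and 0.53 adjusted. Averaged over its 3 probe sets, Hspa5 gave a log2 difference of 0.11 ± 0.08, with a 95% interval from -0.07 to 0.29. Which stretch of the transcript each probe set reads was not looked up here. Names ending in _s_at or _x_at mark probe sets that may also bind other transcripts.

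**Figure D3:**
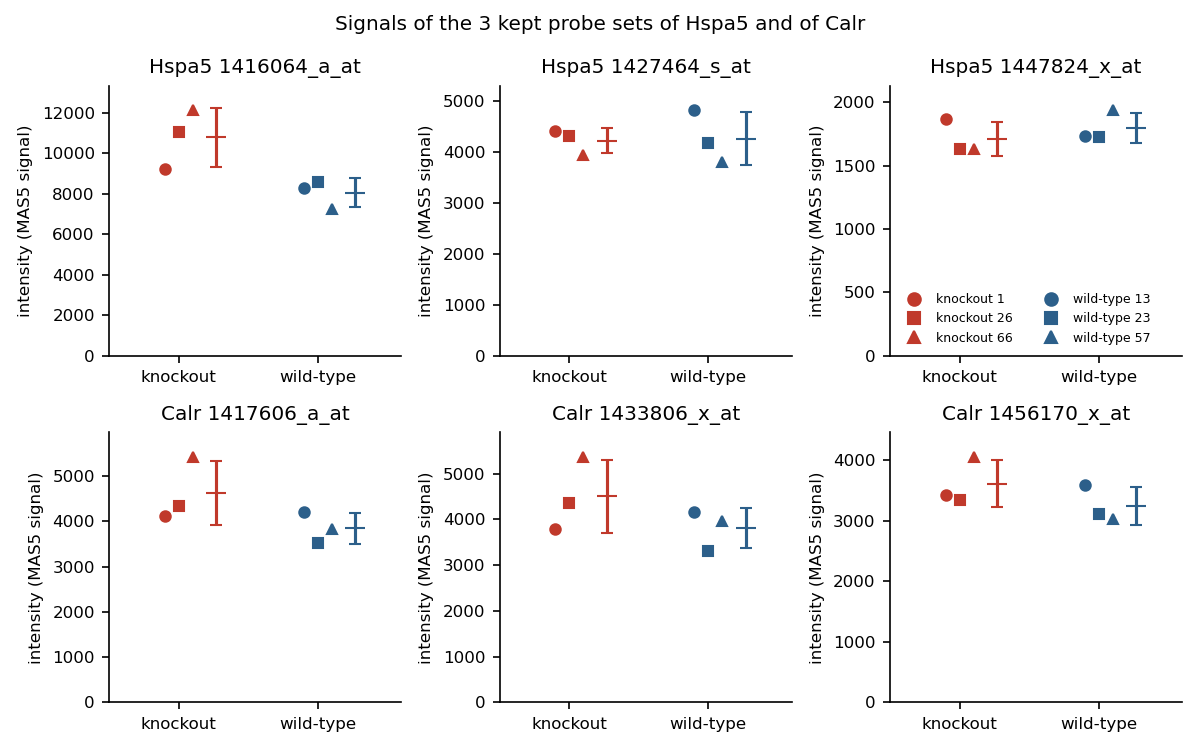
MAS5 signal (vertical axis, linear, from 0) on each array for the 3 kept probe sets of Hspa5 (top) and of Calr (bottom), with the mean and SD of 3 arrays beside the points, knockout left of wild-type. For Hspa5 the genotypes separate on 1416064_a_at alone, while for Calr the knockout mean is above the wild-type mean on all 3 probe sets and knockout 66 is the highest array on each.

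Hsp90b1 encodes GRP94, the Hsp90 of the endoplasmic reticulum, which folds integrins, Toll-like receptors and insulin-like growth factors. Its brightest probe set read 3572, 3368 and 2962 in knockout 1, 26 and 66, against 3688, 3561 and 3008 in wild-type 13, 23 and 57. The genotypes overlapped, with wild-type 13 the highest array, knockout 66 the lowest and wild-type 57 just above it. The log2 difference was -0.05 ± 0.11, with an interval from 0.81-fold to 1.15-fold. The second probe set read 860.5, 1488.5 and 1705 in knockout, against 1413, 1372 and 1207 in wild-type. Its difference was -0.03 ± 0.21, and it turned to 0.26 without knockout 1, the lowest array.

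Dnajb9, also called ERdj4, is a J-domain partner of BiP and a target of XBP1. It read 1198, 1139 and 1148 in knockout 1, 26 and 66, against 1238, 1055 and 1070.0 in wild-type 13, 23 and 57. All knockout arrays lay within the wild-type range. The log2 difference was 0.05 ± 0.12, and the interval ran from 0.870-fold to 1.24-fold. Sdf2l1, a luminal protein that works with BiP and its J-domain partners, had the widest spread of the brightest probe sets of the 10. It read 439.8, 303 and 239.7 in knockout, against 388, 345 and 271 in wild-type. Knockout 1 was the highest and knockout 66 the lowest of all 6 arrays. The log2 difference was -0.06 ± 0.23, with an interval from 0.681-fold to 1.35-fold, and it was 0.13 without knockout 66. Neither gene has an exact ERSE in its promoter window.

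Calr encodes calreticulin, the soluble lectin chaperone and calcium store of the lumen. Its 3 probe sets all lay above 0. The brightest, 1417606_a_at, read 4109, 4337 and 5424 in knockout 1, 26 and 66, against 4199, 3512 and 3834 in wild-type 13, 23 and 57. Knockout 66 stood far above the rest, and knockout 1 lay below wild-type 13. The knockout mean of 4623 ± 703 compares with a wild-type mean of 3848 ± 344 (SD of 3 arrays each). Their log2 difference was 0.26 ± 0.12, with a 95% interval from 0.993-fold to 1.44-fold and a limma adjusted p of 0.974 over all genes. Without knockout 66 the difference was 0.14. The others gave 0.23 ± 0.14 and 0.15 ± 0.11, and 0.0995 and 0.066 without knockout 66. Within arrays, the brightest differed from them by 0.02 and 0.10 (exact permutation p of 0.6 and 0.2, or 1.0 and 0.53 adjusted over the 8 pairs).

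Canx encodes calnexin, the membrane-bound counterpart of calreticulin that shares its substrates. Its brightest probe set read 5228.5, 4495 and 4324 in knockout 1, 26 and 66, against 5315, 5098.5 and 4279 in wild-type 13, 23 and 57. The genotypes overlapped, and the wild-type mean was the higher one. The log2 difference was -0.06 ± 0.11, with an interval from 0.805-fold to 1.14-fold. The second read 1013, 1039.7 and 941 in knockout, against 1079, 1027 and 1027 in wild-type, a difference of -0.07 ± 0.11. The third, the dimmest, read 446.5, 486 and 320.1 in knockout, against 477, 457 and 430.3 in wild-type. Its difference was -0.14 ± 0.17, with knockout 66 the lowest array, and it was 0.034 without that array. With all 6 arrays, the 3 Canx probe sets lay below 0 and the 3 Calr probe sets above 0. The difference between the genes was not tested.

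Among the disulfide isomerases, Pdia3 encodes ERp57, which acts on glycoproteins held by calnexin and calreticulin. Its brightest probe set read 3884.5, 4326 and 3643 in knockout 1, 26 and 66, against 4347, 4026 and 4044 in wild-type 13, 23 and 57. The genotypes overlapped, at a log2 difference of -0.07 ± 0.10 and an interval from 0.820-fold to 1.11-fold, the narrowest of the 10. The dim second probe set read 164, 172 and 266.5 in knockout, against 193, 184 and 251 in wild-type, also at -0.07 but with an SE of 0.23. Pdia6 encodes P5, an isomerase that binds BiP. It read 1607.5, 1548 and 1517.5 in knockout, against 1819.5, 1723 and 1389.6 in wild-type. The knockout arrays were close together inside the wild-type range, and the difference was -0.07 ± 0.12.

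Pdia4, which encodes ERp72, had the lowest log2 difference of the 10. It read 451, 479 and 379.9 in knockout 1, 26 and 66, against 533, 509 and 475 in wild-type 13, 23 and 57. Knockout 26 lay just above wild-type 57, and knockout 1 and 66 lay under the whole wild-type range. The difference was -0.21 ± 0.15, or 0.865-fold with an interval from 0.691 to 1.08, and the limma adjusted p was 0.974. It was -0.12 without knockout 66. Creld2 encodes an EGF-repeat protein of the endoplasmic reticulum that is induced by stress there. It read 578, 533 and 502.5 in knockout, against 594, 471 and 362 in wild-type. Wild-type 57 was the low array. The difference was 0.20 ± 0.18, and it was 0.021 without wild-type 57 and 0.37 without wild-type 13.

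A pair of probe sets lay below the filter on dim probe sets, a signal of 95.2, and was not tested. Pdia4 1450620_at read 70, 91.0 and 233 in knockout 1, 26 and 66, against 34.2, 109.8 and 73.5 in wild-type 13, 23 and 57. Pdia6 1430983_at read 52.1, 73.5 and 136 in knockout, against 96.2, 54.1 and 124 in wild-type. Both were highest in knockout 66. The Pdia4 one pointed opposite to the brighter Pdia4 probe set.

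**Figure D4:**
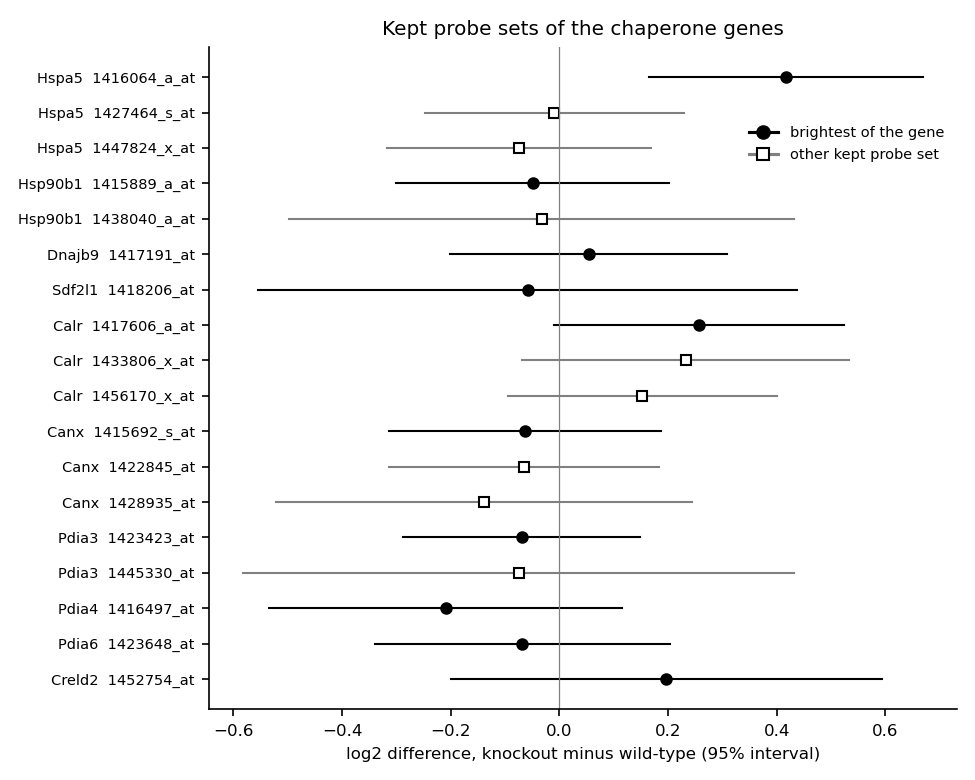
Log2 difference of knockout minus wild-type with its 95% interval from limma (horizontal axis) for the 18 kept probe sets of the 10 genes. Filled circles are the brightest probe set of a gene and open squares the others; the interval of Hspa5 1416064_a_at, 0.17 to 0.67, does not hold 0, and all the others do.

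Over the 18 kept probe sets, 6 lay above 0 and 12 below 0, with a median of -0.05. Of all kept probe sets, 48.2% lay above 0. An unadjusted p under 0.05 was reached by 1 of the 18, against 4.81% of all kept probe sets, and 1 of the 18 had arrays that did not overlap, against 10.5%. Several kept probe sets were available for 5 of the 10 genes. In 4 of the 5 all had the same sign, positive for Calr and negative for Hsp90b1, Canx and Pdia3, and in Hspa5 the signs differed. Of 4619 genes on the array with several kept probe sets, 57.0% had both signs. The range between the probe sets of a gene was 0.49 for Hspa5, 0.10 for Calr, 0.08 for Canx, 0.02 for Hsp90b1 and 0.005 for Pdia3, where the median gene of the array had 0.25. These ranges compare group means and do not show agreement array by array. The within-array log2 ratio of the Hsp90b1 pair spanned 0.79 to 2.03 in knockout, against 1.31 to 1.37 in wild-type. Leaving out 1 array moved the pair difference to between -0.37 and 0.25 for Hsp90b1, and between -0.15 and 0.27 for Pdia3. No pair of probe sets passed the adjustment, and the design could not reach it.

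The arrays of 1 genotype differed among themselves in the level of the 10 genes. Wild-type 13 was the highest array for 7 of the 10, where it was highest for 13.8% of all genes. Knockout 66 was the lowest for 4 and wild-type 57 for another 4, where they were lowest for 24.9% and 16.6% of all genes. The median deviation of the 10 genes from their own 6-array mean was 0.041, 0.020 and -0.11 for knockout 1, 26 and 66. It was 0.15, 0.040 and -0.16 for wild-type 13, 23 and 57, which spanned a wider range than the knockout arrays. In knockout 66, Hspa5 and Calr stood 0.39 and 0.37 above their means, Dnajb9 and Creld2 close to them at 0.01 and 0.006, and the other 6 below, down to -0.29 for Pdia4 and -0.41 for Sdf2l1.

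Differences varied with signal level over the whole array. The brightest 2252 kept probe sets, group 10 of 10 by signal, had a median log2 difference of 0.046, with 64.2% above 0. That group held 10 of the 18 chaperone probe sets, among them all of Hspa5 and Calr. Of these, Hspa5 1416064_a_at and the Calr probe sets lay above 0. The other Hspa5 probe sets and those of Hsp90b1, Canx, Pdia3 and Pdia6 in this group lay below 0. With quantile normalization, by which the distributions of all arrays are made equal, the difference of Hspa5 1416064_a_at was 0.32 and that of Calr 1417606_a_at was 0.21. With array quality weights, from 0.33 for knockout 66 up to 2.53 for knockout 26, 8 genes passed and 0 of the 10 chaperones. The limma adjusted p of Hspa5 over all probe sets was then 0.16.

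Other genes of the pathway were taken from 7 lists set by their textbook roles, 104 genes of which 95 passed the filter. Of these, 50 lay above 0 and 45 below 0, with a median of 0.0091, and in limma 0 passed an adjusted p of 0.05. At an unadjusted p under 0.05 there were 2 of the 95, both lower in knockout, against 4.69% of all genes, so this count does not exceed the background. The genotypes did not overlap in 4 of the 95, 1 higher and 3 lower in knockout, against 10.9% of all genes. The lists are described by these counts alone and were not tested. The median of each of the 7 lists took the other sign when some single array was left out.

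The sensors and factors of the response gave 10 of 16 above 0 and a median of 0.020. Xbp1, the factor made active by IRE1 splicing, read 4522 ± 486 in knockout, against 4253 ± 552 in wild-type, at a log2 difference of 0.09 ± 0.12, and 1 of its 3 other kept probe sets had the opposite sign. The array does not tell its spliced from its unspliced form here. Nfya, a subunit of the NF-Y factor that binds CCAAT, gave 0.23 ± 0.20, and 0.029 without knockout 66. Creb3, a membrane-bound factor related to ATF6, gave -0.25 ± 0.18, with 1 of its 2 other kept probe sets opposite in sign, and -0.028 without knockout 66. Xbp1 too was near 0 without knockout 66, at 0.0084, and without wild-type 57, at -0.013. Helpers of the Hsp70 and Hsp90 chaperones gave 5 of 11 above 0 and a median of -0.02. Cnpy2 gave -0.18 ± 0.12, with 1 of 2 other kept probe sets opposite in sign, the reductase Dnajc10 0.16 ± 0.12 and Manf, a secreted stress protein, 0.16 ± 0.13. Manf was 0.040 without wild-type 57, and Dnajc10 was 0.056 without knockout 66. Cnpy2 was -0.10 without wild-type 13, and -0.0077 as the mean of its probe sets.

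Enzymes of oxidative folding and proline isomerases gave 11 of 18 above 0 and a median of 0.030, with examples on both sides. Fkbp11, a proline isomerase of secretory cells, read 184 ± 18.6 in knockout, against 128 ± 20.8 in wild-type, at a log2 difference of 0.48 ± 0.22 with no overlap. Its second kept probe set gave 0.083, and the mean of both gave 0.28. Fkbp7, of the same family, read 475 ± 3.27 in knockout and 586 ± 54.9 in wild-type, at -0.29 ± 0.14 and also with no overlap. The thioredoxin-like Tmx1 gave 0.22 ± 0.11. Each of the 3 had a limma adjusted p of 0.974.

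The lectin cycle gave 8 of 12 above 0, with a median of 0.021. Uggt1, the sensor that returns misfolded glycoproteins to calnexin, gave 0.25 ± 0.16. The oligosaccharyltransferase subunit Rpn2 gave -0.23 ± 0.13 and the cargo receptor Lman1 -0.24 ± 0.18. Lman1 was -0.057 without knockout 66, -0.43 without knockout 26 and -0.017 with array quality weights. Translocation and signal peptide processing gave 9 of 14 above 0 and a median of 0.060. Ssr1 gave 0.13 ± 0.10, Ssr2 -0.15 ± 0.15 and Sec11a 0.09 ± 0.11, and no list had a narrower span, from -0.15 to 0.13. Ssr2 was -0.0016 without knockout 66, so its difference rests on that array. Leaving out 1 array gave 0.064 to 0.20 for Ssr1 and 0.031 to 0.16 for Sec11a.

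Genes of degradation from the endoplasmic reticulum gave 5 of 17 above 0, with a median of -0.04. Syvn1, the ubiquitin ligase Hrd1, read 269.6 ± 41.1 in knockout and 372 ± 17 in wild-type. Its log2 difference was -0.45 ± 0.17 with no overlap, its second kept probe set gave -0.31, and its limma adjusted p was 0.974. Nploc4, a partner of the extraction ATPase, gave 0.28 ± 0.17. Erlec1, a lectin of this pathway, gave 0.19 ± 0.16, with both of its other kept probe sets opposite in sign, and 0.046 without knockout 1. The list of calcium-binding proteins gave 2 of 7 above 0 and a median of -0.10. Rcn3, a reticulocalbin, read 565 ± 60.7 in knockout and 719 ± 68.0 in wild-type, at -0.34 ± 0.14 with no overlap. Sdf4 gave -0.16 ± 0.13, with its other kept probe set opposite in sign, and Nucb1 0.20 ± 0.18. Without wild-type 13 Sdf4 was -0.046, and with array quality weights Nucb1 was 0.023.

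**Figure D5:**
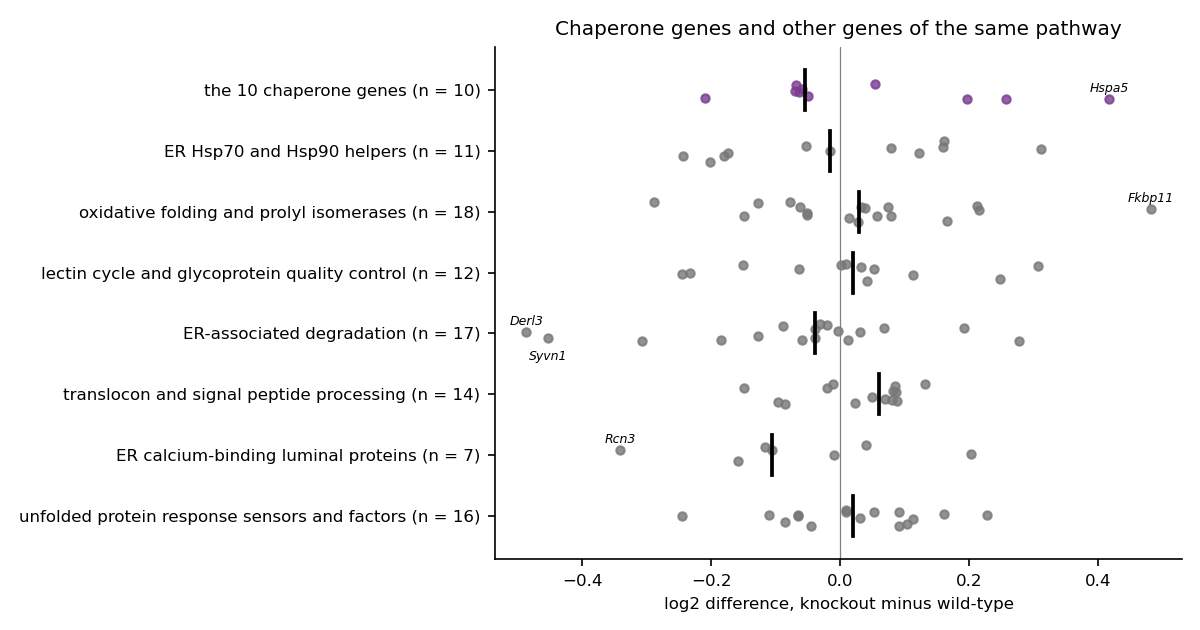
Log2 difference of knockout minus wild-type (horizontal axis) of each measured gene, by its brightest kept probe set, for the 10 chaperone genes (top, purple) and 7 lists of other genes of the pathway (grey). Points are genes and black bars are medians, which lie between -0.10 and 0.060 over the lists; points beyond the chaperone Hspa5 at 0.42 are Fkbp11 on the right, and Derl3 and Syvn1 on the left.

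The ERSE was also used to group genes by sequence. Promoters of 37 genes held an exact match, and 15 of the 37 passed the filter, 6 of them members. Of the 9 others, 2 lay above 0 and 7 below 0, with a median of -0.22. That median was -0.073 without knockout 1, -0.085 without knockout 26, -0.13 without wild-type 57 and -0.039 with the mean of each gene's probe sets. The members with an exact match lay 3 above and 3 below 0, with a median of 0.074, and the 4 without one lay 1 above and 3 below. Among the 9, Dnajc3, an inhibitor of PERK, gave -0.05 ± 0.13, and Ero1b, the oxidase that recharges disulfide isomerases, gave -0.05 ± 0.19. Syvn1 and Pan2, a subunit of a deadenylase, were the 2 whose arrays did not overlap, at -0.45 and -0.40, against 5.45% of all genes that were lower without overlap.

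Markers of the cells that a ventricle sample can hold were measured beside these genes. Cardiomyocyte markers, 8 of 8 kept, summed to signals of 104278 to 117569 in knockout and 98998 to 109082 in wild-type, with 6 of 8 above 0. Markers of cushion mesenchyme and fibroblasts, cells that secrete much matrix, summed to 6914 to 9396 in knockout and 8469.9 to 9546 in wild-type. Of these genes 6 of 8 lay below 0, with a median log2 difference of -0.30. In limma 4 of the 8 had an unadjusted p under 0.05, all lower in knockout, against 4.69% of all genes. After adjustment 0 passed. Col1a1, at -0.51 ± 0.14, was the 1 whose arrays did not overlap between genotypes. Knockout 66, at 9396, lay inside the wild-type range, and the other knockout arrays lay below it. Endothelial markers ranged from 4407 to 4644 in knockout and 4334 to 4595 in wild-type, with 5 of 8 above 0. Epicardial markers ranged from 4428 to 5232 in knockout and 4319 to 4743 in wild-type, with 3 of 7 above 0. The sums of both of these lists overlapped between genotypes. Some single genes did not overlap. Krt8, at a log2 difference of 0.80 ± 0.18 and a limma adjusted p of 0.742, and Krt19, at 0.06 ± 0.15, were higher in all knockout arrays. Pecam1, an endothelial marker, was lower in all of them, at -0.28 ± 0.22. Erythroid markers, with Hba-a1 and Epb42 below the filter, ranged from 41105 to 54229 in knockout and 37591 to 43534.5 in wild-type. Knockout 1 held the high value of this sum. Of the 4 kept erythroid genes, 1 lay above 0 and 3 below 0. Macrophage and platelet markers ranged from 2323 to 2562 in knockout and 2643 to 3029 in wild-type, lower in all knockout arrays. Cd68, C1qb and Itgam were below the filter, and of the 5 kept genes 1 lay above 0 and 4 below 0. The 5 hepatic markers on the array, Alb, Afp, Ttr, Apoa1 and Apob, were all below the filter. Their sum was 250.6 to 406 in knockout and 172 to 245 in wild-type, higher in all knockout arrays. The part of these cell types in the chaperone signals was not tested.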

How the data were processed

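RNA of 3 knockout and 3 wild-type samples was measured on 1-colour Affymetrix arrays. The deposited values are probe set intensities, made by the authors with software that the submitters' processing notes name as GCOS and MAS5. The sources used here do not give their versions or target, and detection calls were not used. The 2% trimmed mean was 250.0 on all 6 arrays, so each had been scaled on its own. Of 45101 probe sets, 64 were controls. The platform annotation gave 1 symbol for 34958, several for 932 and none for 9211.

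Intensities were used as log2(intensity + 16). Kept were probe sets whose mean on that scale lay above the median, a signal of 95.2. Differences, 95% intervals and two-sided p-values came from limma 3.58.1 in R 4.3.3 (lmFit, eBayes with trend), with Benjamini-Hochberg adjustment over all 22518 kept probe sets or over 11661 genes by their brightest kept probe set. Pairs of probe sets of a gene were compared by an exact permutation test over 20 assignments of arrays. The fit was tested on simulated data in which all arrays had the same spread. That test does not cover an array that stands apart, as knockout 66 did. Precision is set by having 3 arrays per genotype, since intensities carry no counting depth.

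The members, lists and tests were chosen with earlier results of these data known. Named were all member probe sets, Naca and, per list, up to 3 genes by smallest p; Dnajc3, Ero1b and Pan2 were chosen after their values were seen. The alternatives were a pseudocount of 1 or of 64, no filter or one at the 70th percentile, quantile and median scaling, eBayes without trend or robust, array weights, no _x_at or _s_at probe sets, averaging the probe sets of each gene, a threshold of 0.1, and each array left out. Promoters are from RefSeq, build GRCm38.p6. Python 3.11.15 and Matplotlib 3.10.9 drew the figures.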

Additional observations from a re-analysis of the deposited data

How the results depend on the processing

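No paired analysis was possible because the genotypes share no replicate number. Hspa5 1416064_a_at stayed between 0.32 and 0.53, the 3 Calr probe sets stayed above 0, and Pdia4 1416497_at below 0, under every setting in which they were fitted; no member passed an adjusted p of 0.05 in any. With 3 arrays per genotype, intervals of about 0.2 to 0.5 on either side of a log2 difference are the limit. Calls numbered 6 over probe sets and 8 over genes with array quality weights, and 0 to 2 over both when an array was left out. The members above 0 numbered 4 to 7 when an array was left out. Some values changed sign, most of them near 0, and the cause was not tested. With array quality weights these were Hspa5 1427464_s_at (0.0084), Hsp90b1 1438040_a_at (0.013), Canx 1428935_at (0.0089), Pdia3 1423423_at (0.016) and Xbp1 (-0.018). Others were Hspa5 1427464_s_at on centring (0.0034), Naca 1448430_a_at on quantile normalization (-0.015), and, from larger values of 0.19 and -0.16, Erlec1 (-0.14) and Sdf4 (0.011) as means of their probe sets. The within-array pairs of Canx (1415692_s_at and 1422845_at) and Pdia3 gave -0.0003 and -0.010 with a pseudocount of 64, and -0.048 and -0.058 on quantile normalization. Leaving out 1 array gave -0.089 to 0.082 for Hspa5 1427464_s_at, -0.14 to 0.026 and -0.23 to 0.26 for Hsp90b1, -0.28 to 0.13 for Sdf2l1, -0.25 to 0.034 for Canx 1428935_at, -0.28 to 0.054 for Pdia3 1445330_at, -0.18 to 0.0090 for Pdia6, -0.013 to 0.17 for Xbp1 and -0.024 to 0.17 for Naca 1416669_s_at. For within-array pairs it gave -0.012 to 0.058 for the first Calr pair, -0.080 to 0.059 and -0.043 to 0.22 for Canx, -0.15 to 0.27 for Pdia3 and -0.37 to 0.25 for Hsp90b1. The median of the 9 non-member genes with an ERSE, an alternative added after the data were seen, ran from -0.30 to -0.039.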
